A study of Mus musculus with 18 samples.

Results

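Interferon-gamma and 7 genes of the type 1 T cell program were followed across 18 RNA libraries labelled as activated mouse T cells. The genes are Ifng, Tbx21, Eomes, Il18r1, Il18rap, Stat4, Cxcr3 and Ifngr1. Each was found by matching its symbol to the Ensembl identifiers of the count table, which gave 8 of the 55487 genes in the table. Spleen cells were sorted by flow cytometry and cultured for 72 h with antibodies to CD3 (bound to the plate) and to CD28, each at 2 µg/ml, in medium holding IL-2 at 10 ng/ml, which stand in for antigen, costimulation and growth factor. The labels give CD8, CD4 and Treg cells from Foxp3 YFP/cre mice and from Foxp3 YFP/cre Ebi3 -/- mice, with 3 libraries in each of the 6 groups. The groups here called WT thus also carry the Foxp3 YFP/cre allele, in which a fluorescent Cre protein is made from the Foxp3 locus. Ebi3 encodes a cytokine subunit found in both IL-27 and IL-35, and the comparison by genotype asks what its loss changes in each kind of T cell. Since the labels do not tie replicates to separate animals or cultures, the spread behind the p-values is that between these libraries and may be technical.

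Type 1 immunity is the branch of the T cell response directed at intracellular microbes and tumour cells, and interferon-gamma is its defining cytokine. IL-12 signals through STAT4, and the T-box transcription factors T-bet (Tbx21) and Eomesodermin (Eomes) then open and activate the Ifng locus in CD4 helper cells and in cytotoxic CD8 cells. IL-18, read by a receptor of 2 chains (Il18r1 and Il18rap), amplifies interferon-gamma production, and CXCR3 guides type 1 cells into inflamed tissue. Interferon-gamma itself is read by a receptor whose ligand-binding chain is Ifngr1 and which signals through the kinases JAK1 and JAK2.

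In the GENCODE M21 annotation of GRCm38, all 8 are protein-coding genes. Ifng lies at chr10:118441046-118445892 on the plus strand and Ifngr1 on the same chromosome at chr10:19591949-19610229. Il18r1 (chr1:40465552-40500854) and Il18rap (chr1:40515362-40551705) are neighbours on the plus strand, and Stat4 lies further along that chromosome at chr1:51987148-52107189. Eomes is at chr9:118478212-118486132, Tbx21 on the minus strand at chr11:97098071-97115331 and Cxcr3 on the minus strand at chrX:101731535-101734269. The libraries read the 3' ends of transcripts, so overlap there matters. Gm28177, a non-coding transcript on the strand of Stat4, covers its 3' end and held 780 counts over the 18 libraries beside 1160 for Stat4. The values of Stat4 are uncertain for that reason. Gm49751, annotated inside Ifng on the same strand, held 71 counts beside 6595 for Ifng.

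RefSeq start sites on GRCm38.p6 gave 11 promoter windows for the 8 genes, each of 300 bases (250 before the start site and 50 from it on). Shown are 3 windows, those of the genes with large differences between CD8 and CD4 libraries below, with any match to a searched motif in capitals and otherwise lower case. The first is that of Ifng on the plus strand at chr10:118440796-118441095, the second that of Eomes on the plus strand at chr9:118477939-118478238, and the third is 1 of 3 windows of Il18r1, on the plus strand at chr1:40465756-40466055.
Ifng: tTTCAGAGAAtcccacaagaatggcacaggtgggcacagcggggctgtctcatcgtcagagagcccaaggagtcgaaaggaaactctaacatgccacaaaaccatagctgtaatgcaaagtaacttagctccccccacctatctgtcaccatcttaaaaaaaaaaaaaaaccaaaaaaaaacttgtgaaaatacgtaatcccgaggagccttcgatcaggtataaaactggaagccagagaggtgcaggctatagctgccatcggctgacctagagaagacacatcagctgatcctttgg
Eomes: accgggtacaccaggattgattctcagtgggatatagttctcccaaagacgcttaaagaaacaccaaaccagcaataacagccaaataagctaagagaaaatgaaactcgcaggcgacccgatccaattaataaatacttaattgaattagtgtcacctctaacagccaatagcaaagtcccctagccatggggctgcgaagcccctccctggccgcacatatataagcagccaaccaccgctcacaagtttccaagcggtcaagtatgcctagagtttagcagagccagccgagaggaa
Il18r1: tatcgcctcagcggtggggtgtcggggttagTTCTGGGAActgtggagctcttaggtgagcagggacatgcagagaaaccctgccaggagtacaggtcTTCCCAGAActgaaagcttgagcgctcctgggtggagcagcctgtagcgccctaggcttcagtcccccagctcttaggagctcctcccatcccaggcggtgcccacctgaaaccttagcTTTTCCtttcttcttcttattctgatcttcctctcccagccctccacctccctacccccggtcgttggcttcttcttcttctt
In all, 4 motifs were searched on both strands. The interferon-gamma activated site TTCNNNGAA, an element bound by STAT proteins, reads alike on both strands. It was found in 2 of the 11 windows, from 2 of the 8 genes. It was present in Ifng as TTCAGAGAA beginning at position -249 from the start site, and in the Il18r1 window shown as TTCTGGGAA at position -219 and TTCCCAGAA at position -152. The site occurred in 8.3% of 32851 RefSeq promoter windows of the same length. The start site of that Il18r1 window lies 454 bases from the GENCODE start of the gene. The other windows of Il18r1, with start sites 0 and 69 bases from it, had 0 matches to any of the 4 motifs. The NFAT core GGAAAA was found as its complement TTTTCC, beside 23.4% of all windows. It occurred in the Il18r1 window shown at position -33 and in a window of Stat4 at position -232. The start site of that Stat4 window lies 21092 bases from the GENCODE start. No match overlapped another. The T-box core TCACACC (3.98% of all windows) and the AP-1 site TGANTCA (7.81%) had 0 matches in the windows of the 8 genes.

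Total counts ran from 841892 to 2255950 per library, so that 3 counts correspond to 1.3 to 3.85 CPM, the depth-scaled unit used below (counts relative to the TMM-scaled library total), and values below that rest on very few molecules. The 8 genes all passed the filter on low counts, as 12693 genes did, but Il18rap passed on 3 libraries only (1 Treg WT and 2 Treg KO) and Cxcr3 on 3 (2 CD8 KO and 1 Treg KO). Il18r1 passed on the CD8 and Treg libraries and on 0 CD4 libraries, so it was admitted only through groups where it was high. With no filter on low counts its edgeR adjusted p against CD4 was 8.72e-09 for CD8 WT, 2.96e-08 for CD8 KO and 2.29e-08 for Treg WT. Cd8a with Cd8b1 summed to 278 to 423 CPM in the CD8 libraries and to 1.44 to 12.5 CPM in the CD4 libraries. In the Treg libraries they summed to 57.9 to 92.5 CPM. Over the 18 libraries, 8 B cell markers summed to 2400 to 5772 CPM and 4 T cell markers to 326 to 729 CPM. Hemoglobin genes stood at 619 to 1484 CPM. Markers of cells other than T cells were thus present in every library, and the CPM levels below are those of whole libraries. The share of such cells was not tested. Foxp3 had at most 1 count in any of the 18 libraries, and the summed level of 5 Treg markers was lower in Treg libraries (213 to 385 CPM) than in the CD8 and CD4 libraries (616 to 1341 CPM). Of these, Il2ra, Ctla4 and Tnfrsf18 were called lower than in CD4 WT, but Ikzf2, the Helios gene, was called higher (52.0 against 17.0 CPM; edgeR adjusted p = 0.00147). As these markers were at odds, the libraries are called Treg-labelled. Ebi3, the deleted gene, was counted in every library labelled KO. It stood at 24.0 to 33.7 CPM against 27.7 to 29.4 CPM in CD8 WT, at 20.4 to 25.9 CPM against 38.3 to 59.9 CPM in CD4 WT, and at 24.3 to 34.1 CPM against 25.6 to 39.8 CPM in Treg-labelled WT. The groups overlapped in CD8 and Treg-labelled libraries and lay apart in CD4 libraries. Which part of the gene is deleted is not stated in the labels, so KO below means only that a library is labelled so. Among Treg-labelled libraries, WT replicate 1 could not be told from WT replicate 2, nor KO replicate 1 from KO replicate 3, beyond sampling noise. Each such pair was counted as 1 sample, which leaves n = 2 per genotype there. The same held for 4 of 9 pairs across the genotype labels. The Treg-labelled libraries held counts for 20034 to 20596 genes, from totals of 841892 to 1089003 counts. The CD8 and CD4 libraries held counts for 16193 to 17338 genes, from totals of 1358671 to 2255950 counts. The part of this wider detection in the Treg-labelled values that rest on few counts, such as Il18r1, Il18rap and Eomes, was not tested.

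**Figure D1:**
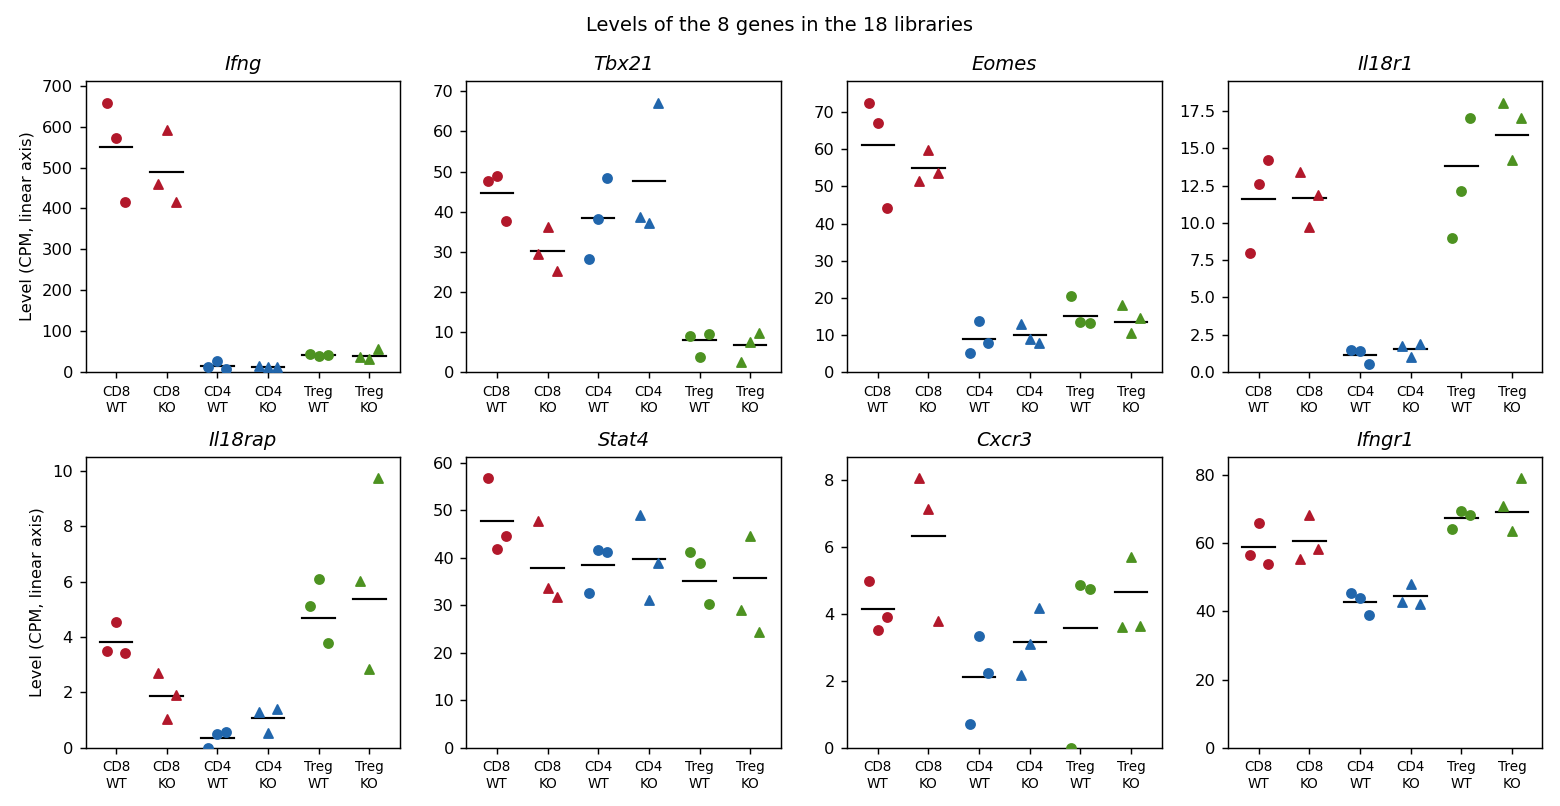
Level of each of the 8 genes in CPM (linear axis) in the 18 libraries, by cell type and genotype label; points are libraries (circles WT, triangles KO) and bars are group means, with near-identical Treg-labelled libraries averaged first. Ifng sits between 415 and 659 CPM in the 6 CD8 libraries and under 56 CPM in all others, Tbx21 is lowest in the Treg-labelled libraries, and Il18r1 is lowest in the CD4 libraries.

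Activated CD8 libraries held far more Ifng RNA than CD4 libraries, at a fitted fold of 33.5 in WT and 36.3 with KO labels, and more Eomes and Il18r1, whereas Tbx21, Stat4 and Cxcr3 did not pass the test between these cell types in either genotype. Ifng itself, the cytokine gene, stood at 659, 572 and 417 CPM in CD8 WT and at 11.5, 27.3 and 7.80 CPM in CD4 WT. In the libraries labelled KO it stood at 460, 592 and 415 CPM in CD8 and at 14.3, 12.9 and 12.5 CPM in CD4. Every CD8 library was thus far above every CD4 library, and among the CD4 libraries WT replicate 2 was the highest. The level was 549 ± 123 CPM in CD8 WT and 15.5 ± 10.3 CPM in CD4 WT (SD, n = 3 each). The log2 fold change was 5.07 with an SE of 0.32 (adjusted p = 2.3e-06, edgeR's quasi-likelihood test with Benjamini-Hochberg adjustment). With KO labels it was 489 ± 92.3 CPM in CD8 and 13.2 ± 0.929 CPM in CD4 (SD, n = 3 each), and the log2 fold change was 5.18 with an SE of 0.32 (edgeR adjusted p = 1.57e-06). Fewer Ifng-producing cells and less Ifng RNA per cell cannot be told apart in such bulk libraries.

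The 2 T-box factors differed from each other in this comparison. Eomes, which drives cytotoxic genes in CD8 cells, measured 72.6, 67.1 and 44.1 CPM in CD8 WT and 5.05, 13.9 and 7.80 CPM in CD4 WT, with no overlap. Its log2 fold change was 2.69 ± 0.27 in WT (SE; edgeR adjusted p = 1.27e-06) and 2.44 ± 0.25 with KO labels (edgeR adjusted p = 2.4e-06). Tbx21, the T-bet gene that defines the helper type 1 lineage, measured 47.7, 48.9 and 37.7 CPM in CD8 WT and 28.2, 38.3 and 48.5 CPM in CD4 WT, and these ranges overlapped, with CD4 WT replicate 1 below all 3 CD8 WT libraries. Its log2 difference was 0.20 in WT, with a 95% interval from -0.29 to 0.68 (edgeR adjusted p = 0.714). With KO labels Tbx21 was 29.5, 36.2 and 25.2 CPM in CD8 and 38.6, 37.3 and 67.2 CPM in CD4. The groups lay apart, but the log2 difference of -0.68 (95% interval -1.17 to -0.20) did not pass the adjusted test (edgeR adjusted p = 0.159) except with no filter on low counts (0.0106).

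Both chains of the IL-18 receptor were scarce in CD4 libraries. Il18r1, the ligand-binding chain, was 7.95, 12.6 and 14.2 CPM in CD8 WT and 1.44, 1.44 and 0.557 CPM in CD4 WT, the latter from 6 counts in all. The 70 counts in CD8 WT gave a ratio of 10.2 (95% counting interval 4.45 to 28.7), and the log2 fold change was 3.34 ± 0.46 (SE; edgeR adjusted p = 6.1e-05). With KO labels the ratio was 7.44 (3.81 to 16.2) from 69 and 10 counts (edgeR adjusted p = 7.59e-05). Il18r1 passed the filter through CD8 and Treg-labelled libraries only, and its tests with no filter are given above. Il18rap, the accessory signalling chain, was 3.48, 4.54 and 3.43 CPM in CD8 WT and 0, 0.479 and 0.557 CPM in CD4 WT. The 23 counts against 2 gave a ratio of 10 (95% counting interval 2.48 to 87.9; edgeR adjusted p = 0.0167). This call was lost without CD8 WT replicate 2 (edgeR adjusted p = 0.078), without CD4 WT replicate 1 (0.0537) or replicate 3 (0.06), and with DESeq2 (0.121). With KO labels Il18rap was 2.68, 1.02 and 1.90 CPM in CD8 and 1.30, 0.518 and 1.39 CPM in CD4, which overlapped (11 against 7 counts, ratio 1.7, 0.6 to 5.16; edgeR adjusted p = 0.721). The difference between the 2 genotype labels in this CD8 against CD4 contrast was -2.58 ± 1.14 on the log2 scale and did not pass the test (SE; edgeR adjusted p = 0.289).

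Stat4, the transducer of IL-12 signals, did not pass the test between CD8 and CD4 libraries. It measured 56.7, 41.9 and 44.6 CPM in CD8 WT and 32.5, 41.6 and 41.2 CPM in CD4 WT, just apart, with a log2 difference of 0.29 (95% interval -0.12 to 0.69; edgeR adjusted p = 0.477). Cxcr3, the chemokine receptor, came from 25 counts in CD8 WT and 12 in CD4 WT, at 4.97, 3.53 and 3.92 CPM against 0.722, 3.35 and 2.23 CPM. The ratio of 1.82 had a 95% counting interval from 0.881 to 3.97, which holds 1 (edgeR adjusted p = 0.411). With KO labels 37 against 20 counts gave a ratio of 2. Its 95% counting interval, 1.13 to 3.63, left out 1 but covers counting error only, and the test was not passed (edgeR adjusted p = 0.314). Ifngr1, the receptor chain that binds interferon-gamma, was 56.7, 66.1 and 53.9 CPM in CD8 WT and 45.5, 44.0 and 39.0 CPM in CD4 WT. The groups lay apart in WT and again with KO labels (55.3, 68.4 and 58.4 CPM against 42.9, 48.1 and 42.2 CPM). The log2 differences of 0.45 ± 0.15 and 0.43 ± 0.14 (SE) missed the threshold (edgeR adjusted p = 0.105 and 0.138). The first passed when all 18 libraries were fitted together as separate samples (edgeR adjusted p = 0.0454). That fit counted the near-identical Treg-labelled libraries singly, which can narrow the shared estimate of the spread.

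In WT, 4 of the 8 genes were called higher in CD8 libraries, beside 2.04% of all genes tested, and 0 were called lower, beside 1.07%. With KO labels 3 of the 8 were called higher, beside 0.89%, and 0 lower, beside 1.93%. Il18r1, called under both labels, and Il18rap, called in WT, were admitted by the filter as given above. Both passed it through 0 CD4 libraries, so their part in these counts and in the median is a description. The median log2 difference of the 8 genes was 1.78 in WT and 0.86 with KO labels, beside -0.02 and 0 over all genes tested. In WT, Ifng (5.07), Il18r1 (3.34), Il18rap (3.32) and Eomes (2.69) lay above that median. The other genes ran from 0.20 (Tbx21) to 0.86 (Cxcr3). The summed level of 10 markers of natural killer and innate-like T cells, which also make interferon-gamma, overlapped between CD8 (32.8 to 68.3 CPM) and CD4 libraries (36.4 to 66.4 CPM). Most of that sum was Tyrobp and Fcer1g. Trdc, the T cell receptor delta constant gene, was higher in CD8 WT, with Ifng (9.45, 4.54 and 3.92 CPM against 0.722, 0.479 and 1.11 CPM; edgeR adjusted p = 0.0211), and overlapped between CD8 and CD4 libraries with KO labels (edgeR adjusted p = 0.622); its part in the result was not tested. Of the 10 markers, Klra4 and Zbtb16 were at 0 in all CD8 WT libraries, Ncr1, Klra4 and Klra8 in all CD8 KO libraries, and Klra8 and Klre1 in all CD4 libraries.

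**Figure D2:**
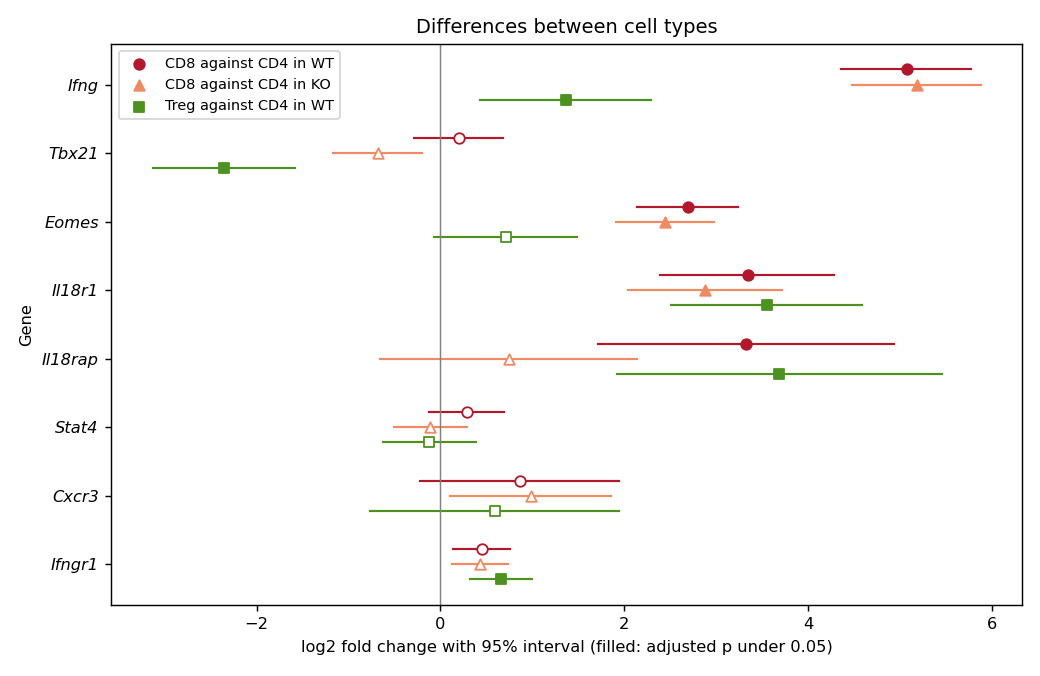
Fitted log2 fold changes (x axis) of the 8 genes (y axis) between cell types, with 95% intervals; filled symbols passed an edgeR adjusted p of 0.05. CD8 against CD4 differences for Ifng lie at 5.07 (WT) and 5.18 (KO labels), those of Tbx21 at 0.20 and -0.68, and the Treg-labelled against CD4 differences run from -2.36 for Tbx21 to 3.68 for Il18rap.

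The rest of the pathway was read from 6 lists with 76 genes, ordered from upstream receptors to downstream targets. Beside the counts of each list, 2.04% of all genes tested were called higher in CD8 WT and 1.07% lower. With KO labels these shares were 0.89% and 1.93%. Of 12 upstream cytokine receptors and kinases, 2 were called higher in CD8 than in CD4 WT libraries and 0 lower. Il12rb2, the inducible IL-12 receptor chain, stood at a mean of 127 against 49.6 CPM (log2 fold change 1.31 ± 0.22 SE; edgeR adjusted p = 0.00187). Il2rb, the IL-2 and IL-15 receptor chain, stood at 479 against 272 CPM (0.79 ± 0.14; edgeR adjusted p = 0.00116). With KO labels 0 of these 12 were called, and Il12rb2 was 118 against 71.9 CPM (edgeR adjusted p = 0.109). Of 11 transcription factors tested, 3 were called higher and 2 lower in WT. Runx3, the Runt factor of the CD8 lineage, was at 307 against 160 CPM (edgeR adjusted p = 7.6e-05), and Runx1, its relative, at 14.9 against 49.4 CPM (log2 fold change -1.75 ± 0.21 SE; edgeR adjusted p = 9.47e-06). Batf3, an AP-1 family factor, was at 66.7 against 16.1 CPM (2.02 ± 0.25; edgeR adjusted p = 5.26e-05) and its relative Batf at 58.8 against 36.7 CPM (edgeR adjusted p = 0.0193).

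Effector genes were called in 1 direction only. Of 11 tested, 6 were called higher in CD8 than in CD4 libraries and 0 lower, in WT and again with KO labels, with a median log2 difference of 1.41 and 1.67. Prf1, which encodes the pore-forming perforin, had a mean of 110 CPM in CD8 WT and 1.84 CPM in CD4 WT (log2 fold change 5.85 ± 0.32 SE; edgeR adjusted p = 6.73e-11). The granzyme genes Gzma and Gzmb stood at 66.4 against 1.81 CPM (5.27 ± 0.55; edgeR adjusted p = 9e-05) and at 1025 against 158 CPM (2.66 ± 0.40; edgeR adjusted p = 0.00643). Ccl3, a chemokine of activated cytotoxic cells, stood at 22.4 against 2.47 CPM (3.07 ± 0.53; edgeR adjusted p = 0.00292). Among 6 genes of other helper programs tested, Il13, a type 2 cytokine, was higher in CD8 WT (77.2 against 39.6 CPM; edgeR adjusted p = 0.00313) and Il5, its neighbour in the type 2 program, lower (1.33 against 4.84 CPM; edgeR adjusted p = 0.0278).

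On the receiving side of the pathway, the genes called between these cell types were lower in CD8 libraries, where Ifng was higher. Of 8 genes of interferon-gamma receptor signalling and feedback, 0 were called higher and 2 lower in CD8 WT. These were the signalling receptor chain Ifngr2 (7.44 against 15.8 CPM; log2 fold change -1.10 ± 0.30 SE; edgeR adjusted p = 0.042) and its kinase Jak2 (54.3 against 107 CPM; -0.99 ± 0.13; edgeR adjusted p = 2.98e-05). Of 16 interferon-gamma-induced genes tested, 0 were called higher and 3 lower, and 15 of the 16 log2 differences were negative, with a median of -0.56. Over all 12693 genes tested, 6653 were negative, with a median of -0.02. Iigp1 and Irgm1, immunity-related GTPases, stood at 3.63 against 21.2 CPM (-2.57 ± 0.36; edgeR adjusted p = 9.74e-05) and 20.3 against 35.1 CPM (edgeR adjusted p = 0.0321). Gbp5, a guanylate-binding protein gene, stood at 9.58 against 23.2 CPM (-1.29 ± 0.26; edgeR adjusted p = 0.00469). With KO labels Jak2 (49.0 against 116 CPM; edgeR adjusted p = 8.57e-07) was again lower. So were Iigp1 (edgeR adjusted p = 0.023), Gbp5 (edgeR adjusted p = 0.00503) and Igtp, another immunity-related GTPase (137 against 201 CPM; edgeR adjusted p = 0.007). The median of the 16 was then -0.27, with 10 negative, beside a median of 0 and 6062 negative among all 12693 genes tested. Some of these genes are also active in B cells. The summed level of 8 B cell markers was 2400 to 4061 CPM in CD8 WT and 3217 to 5772 CPM in CD4 WT. It was 3721 to 5107 CPM in CD8 KO and 2837 to 3894 CPM in CD4 KO. The ranges overlapped between the cell types under both labels, but the direction of the difference changed with the label. Fitted log2 differences of the 8 markers, CD8 against CD4, ran from -0.51 (Cd79b and Pax5) to -0.09 (Fcer2a) in WT. With KO labels they ran from 0.31 (Pax5) to 0.47 (Cd79a), and none was called under either label. The part of B cells in the result was not tested.

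**Figure D3:**
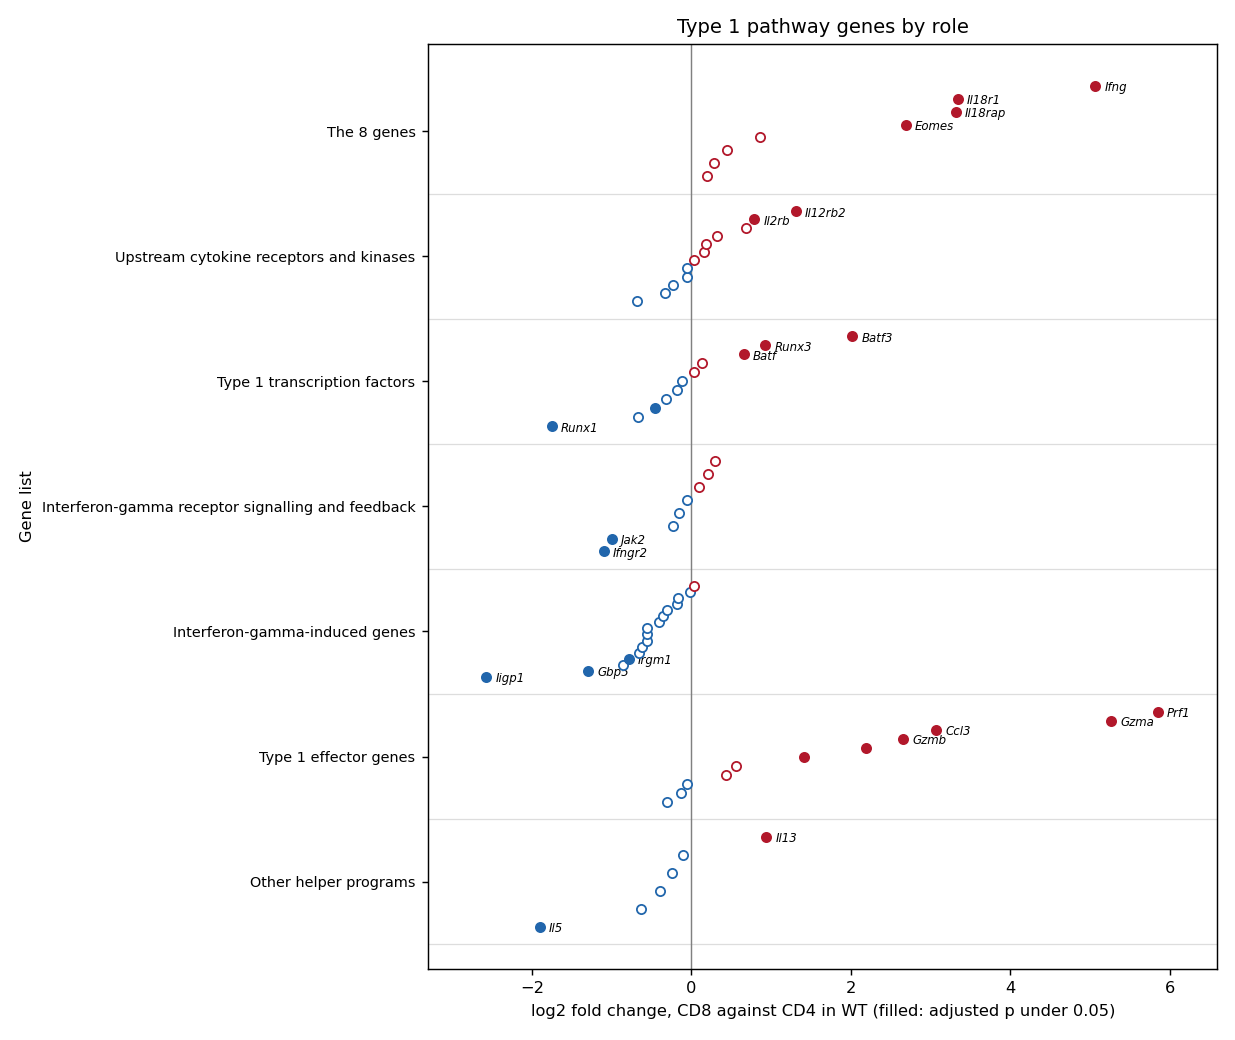
Fitted log2 fold changes (x axis) of CD8 against CD4 WT libraries for the 8 genes and the 6 pathway lists (rows), 1 point per gene tested, red above and blue below 0 and filled where the edgeR adjusted p passed 0.05; up to 4 called genes per list are named. Effector genes reach 5.85 (Prf1), while 15 of 16 interferon-gamma-induced genes lie below 0, down to -2.57 (Iigp1).

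The genes whose levels most resembled Ifng over the 12 CD8 and CD4 libraries, among 9143 genes with a mean of at least 10 CPM, were Prf1 (Pearson r = 0.986 of log2 CPM), Xcl1 (0.984), Eomes (0.983), Cd8a (0.982) and Atp8b4 (0.982). Xcl1 encodes a chemokine of activated CD8 and natural killer cells. These coefficients are a description, since the 12 libraries share the split into 2 cell types that sets most of their variation. Taken as deviations from the 4 group means, the same genes had r of 0.43, 0.24, 0.75, -0.15 and 0.50 with Ifng, so Eomes kept the closest resemblance of these 5. Among the other members of the 8, r with Ifng over the 12 libraries was 0.97 for Il18r1, 0.91 for Ifngr1, 0.78 for Il18rap, 0.70 for Cxcr3, 0.26 for Stat4 and -0.22 for Tbx21. As deviations from the group means these were 0.09, 0.44, -0.05, 0.43, 0.20 and 0.04.

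The Treg-labelled libraries held an intermediate amount of Ifng, little Tbx21, and levels of both IL-18 receptor chains that overlapped those of the CD8 libraries. Ifng was 43.6, 40.2 and 41.7 CPM in WT and 36.1, 31.3 and 55.9 CPM with KO labels, above all 6 CD4 libraries (7.80 to 27.3 CPM) and below all 6 CD8 libraries. Against CD4 WT the log2 fold change was 1.36 ± 0.43 (SE; edgeR adjusted p = 0.0225), and this call was lost without CD4 WT replicate 1 (edgeR adjusted p = 0.0842) or without Treg WT replicate 3 (0.0725). Against CD8 WT it was -3.72 ± 0.33 (edgeR adjusted p = 1.04e-06). Cd8a and Cd8b1 were also between the CD4 and CD8 libraries. Per 100 counts of Cd8a the Treg-labelled libraries held 86.8 to 142 counts of Ifng and the CD8 libraries 251 to 331. The part of CD8 cells in the result was not tested.

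Tbx21 in the Treg-labelled libraries came from 2 to 10 counts each, at 8.99, 3.65 and 9.47 CPM in WT and 2.41, 7.59 and 9.73 CPM with KO labels. All 6 were below every CD4 library (28.2 to 67.2 CPM) and every CD8 library (25.2 to 48.9 CPM). The log2 fold change was -2.36 ± 0.38 against CD4 WT (SE; edgeR adjusted p = 2.62e-05) and -2.57 ± 0.37 against CD8 WT (edgeR adjusted p = 4.46e-06). Eomes, at 20.5, 13.4 and 13.3 CPM in WT, overlapped the CD4 WT libraries (log2 difference 0.71, 95% interval -0.07 to 1.48; edgeR adjusted p = 0.14). That difference passed the test without CD4 WT replicate 2, the highest of the 3 for Eomes (edgeR adjusted p = 0.0227). Against CD8 WT Eomes was lower by a log2 fold change of -1.99 ± 0.29 (SE; edgeR adjusted p = 3.5e-06).

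The IL-18 receptor followed another order. Il18r1 was 8.99, 12.2 and 17.0 CPM in Treg-labelled WT libraries, overlapping CD8 WT (log2 difference 0.20, 95% interval -0.46 to 0.86; edgeR adjusted p = 0.639) and far above CD4 WT (ratio 11.6, 95% counting interval 4.82 to 33.7; edgeR adjusted p = 4.02e-06). Il18rap was 5.14, 6.09 and 3.79 CPM, 13 counts against 2 in CD4 WT, a ratio of 12.9 (2.92 to 118). Since Il18rap passed the filter only through Treg-labelled libraries, that value is given as a description. Il18r1 passed it through Treg-labelled and CD8 libraries only, and its test against CD4 WT with no filter is given above. Ifngr1 was 64.2, 69.4 and 68.2 CPM, above CD4 WT by a log2 fold change of 0.66 ± 0.16 (SE; edgeR adjusted p = 0.0021) and not separable from CD8 WT (95% interval -0.13 to 0.52; edgeR adjusted p = 0.318). Stat4 at 41.1, 39.0 and 30.3 CPM and Cxcr3 at 0, 4.87 and 4.73 CPM (0, 4 and 5 counts) passed the test against neither.

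Over cell types, then, the order of median levels for Ifng and Eomes was CD8 (516 and 56.7 CPM), Treg-labelled (40.9 and 14.0 CPM) and CD4 (12.7 and 8.34 CPM), and the ranges of the lower pair overlapped for Eomes. For Il18r1, Il18rap and Ifngr1 it was Treg-labelled (15.6, 5.58 and 68.8 CPM), CD8 (12.2, 3.06 and 57.5 CPM) and CD4 (1.44, 0.537 and 43.4 CPM), with overlap between Treg-labelled and CD8 ranges for all 3 genes and between CD8 and CD4 ranges for Il18rap. For Tbx21 it was CD4 (38.4 CPM) and CD8 (37.0 CPM), which overlapped, and Treg-labelled (8.29 CPM). The Stat4 medians were 43.2, 40.1 and 34.6 CPM in CD8, CD4 and Treg-labelled libraries and the Cxcr3 medians 4.45, 2.67 and 4.19 CPM, with overlap between each pair.

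Against CD4 WT, 4 of the 8 genes were called higher in Treg-labelled WT libraries (Ifng, Ifngr1, Il18r1 and Il18rap, the last 2 admitted by the filter as given above) and 1 lower, where 23.1% of all genes tested were called higher and 16.6% lower. Since Il18r1 and Il18rap were admitted only through groups where they were high, their part in this count is a description. Against CD8 WT, 0 were called higher and 3 lower, beside 27.1% and 20.1%. With that many genes different, these shares say little about the 8 genes as a group. The IL-12 receptor genes were lower in the Treg-labelled libraries. Il12rb1, the constitutive chain, was at 10.0 CPM against 67.2 CPM in CD4 WT (log2 fold change -2.75 ± 0.29 SE; edgeR adjusted p = 4.6e-08) and Il12rb2 at 11.3 against 49.6 CPM (-2.09 ± 0.36; edgeR adjusted p = 0.000112). Of 12 upstream genes, 5 were lower and 1 higher than in CD4 WT. Of 11 effector genes 5 were higher, among them Prf1 (19.8 against 1.84 CPM; edgeR adjusted p = 5.58e-06), and 4 lower, among them Lta, the lymphotoxin-alpha gene (9.87 against 76.8 CPM; edgeR adjusted p = 6.62e-06). Among interferon-gamma-induced genes 1 of 16 was higher, Iigp1 (38.9 against 21.2 CPM; edgeR adjusted p = 0.0175), and 5 were lower, led by the immunoproteasome subunit gene Psmb9 (49.6 against 180.0 CPM; edgeR adjusted p = 1.16e-06). The summed B cell markers ran from 4251 to 4672 CPM in the Treg-labelled libraries, within the range of CD4 WT. Of the 8 B cell markers, 2 were called higher than in CD4 WT, Fcer2a (50.8 against 13.8 CPM; edgeR adjusted p = 2.38e-06) and Cd79a (24.2 against 8.42 CPM; edgeR adjusted p = 0.000515). The 8 myeloid and dendritic cell markers ran from 42.6 to 59.1 CPM, above 11.4 to 28.5 CPM in all other libraries. The part of such cells in the result was not tested.

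Loss of Ebi3, as labelled, went with no called change of any of the 8 genes in any cell type. In CD8 libraries Ifng, with the values given above, overlapped between labels, at a log2 difference of -0.17 (95% interval -0.67 to 0.33; edgeR adjusted p = 0.789). In CD4 libraries it was -0.29 (-1.26 to 0.68; edgeR adjusted p = 0.944) and in Treg-labelled libraries -0.07 (-0.99 to 0.85; edgeR adjusted p = 1), and the interval was narrowest in CD8 libraries. Of the 8 genes, Ifngr1 had the narrowest intervals, at -0.25 to 0.33 in CD8 and -0.25 to 0.37 in CD4 libraries.

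Tbx21 had the smallest unadjusted p of the 8 genes between genotype labels in CD8 libraries. The 3 WT libraries (47.7, 48.9 and 37.7 CPM) were above the 3 labelled KO (29.5, 36.2 and 25.2 CPM), by a narrow gap. The log2 difference was -0.57 ± 0.23 (SE; 95% interval -1.06 to -0.08). That p by edgeR was 0.0249, the only one under 0.05 among the 8, and its edgeR adjusted p was 0.313. In CD4 libraries the groups overlapped and the difference was 0.31 (-0.17 to 0.78; edgeR adjusted p = 0.865). The difference between the 2 cell types, -0.88 ± 0.33, did not pass either (SE; edgeR adjusted p = 0.234) except with no filter on low counts (0.0273). Il18rap was also apart in CD8 libraries, 3.48, 4.54 and 3.43 CPM against 2.68, 1.02 and 1.90 CPM, from 23 and 11 counts (ratio 0.487, 95% counting interval 0.214 to 1.04; edgeR adjusted p = 0.379). Eomes (log2 difference -0.16), Stat4 (-0.35), Cxcr3 (0.59), Il18r1 (0.00) and Ifngr1 (0.04) overlapped between the labels.

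Markers of other cells also varied among the CD8 libraries. The 8 B cell markers summed to 2400, 2756 and 4061 CPM in WT replicates 1 to 3 and to 4198, 3721 and 5107 CPM in KO replicates 1 to 3. Ifng was 659, 572 and 592 CPM in the 3 libraries with the lowest sums and 417, 460 and 415 CPM in the 3 with the highest. Each of those sets held libraries of both labels. Tbx21 was 47.7, 48.9 and 36.2 CPM in the first 3 and 37.7, 29.5 and 25.2 CPM in the last 3. The 4 T cell marker genes ran the other way, from 649, 729 and 484 CPM in WT to 545, 526 and 326 CPM in KO, and hemoglobin from 619, 698 and 1031 CPM to 1061, 972 and 1452 CPM. The part of these in the differences between genotype labels was not tested.

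**Figure D4:**
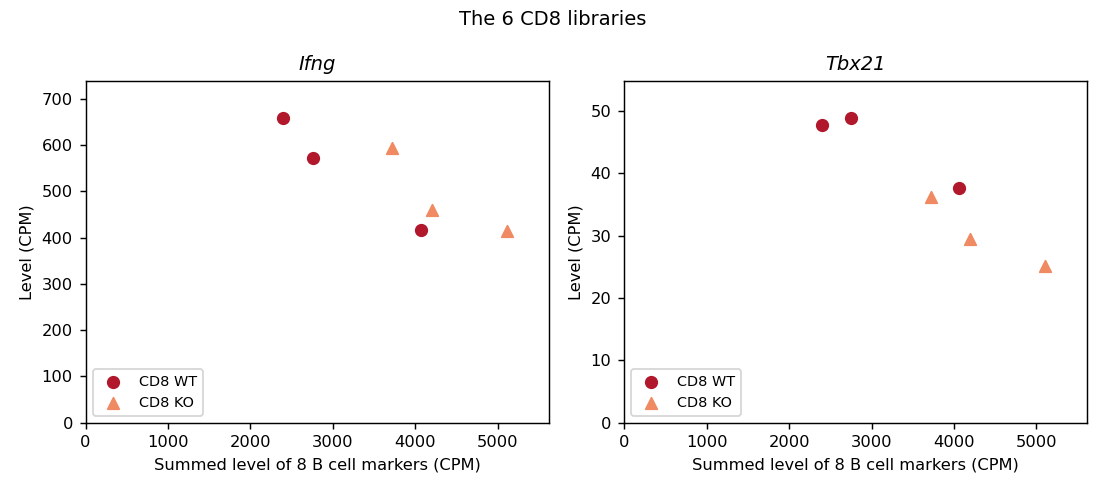
Level of Ifng (left) and Tbx21 (right) in CPM against the summed level of 8 B cell markers in CPM in the 6 CD8 libraries; circles are WT and triangles are labelled KO. WT replicates 1 and 2, at B cell sums of 2400 and 2756 CPM, hold the highest Tbx21 (47.7 and 48.9 CPM), and KO replicate 3, at 5107 CPM, the lowest Ifng and Tbx21 (415 and 25.2 CPM).

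Of the 8 genes, 2 (Tbx21 and Il18rap) had groups entirely apart between genotype labels in CD8 libraries, beside 17.4% of all genes tested, 0 in CD4 libraries, beside 9.64%, and 0 in Treg-labelled libraries, beside 9.4%. At an adjusted p of 0.05 edgeR called 0% of genes in CD8, 0% in CD4 and 0% in Treg-labelled libraries, and 0% for the difference between CD8 and CD4. At an unadjusted p of 0.05, 1736, 686, 185 and 1901 genes passed in these 4 tests, among them 1, 0, 0 and 2 of the 8 genes. DESeq2 called 25, 1, 0 and 2 genes and limma-voom 0 in each, with 0 of the 8 genes among them. Without CD8 WT replicate 3, edgeR called 137 genes in CD8 libraries and 261 for the difference between the cell types, and again 0 of the 8. All 6 pathway lists likewise had 0 called genes between genotype labels in each cell type. Their median log2 differences lay between -0.08 and 0.20 in CD8, beside 0 over all genes. In CD4 libraries they ran from -0.20 for interferon-gamma-induced genes to 0.44 for other helper programs, and in Treg-labelled libraries from -0.08 to 0.18, again beside 0.

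**Figure D5:**
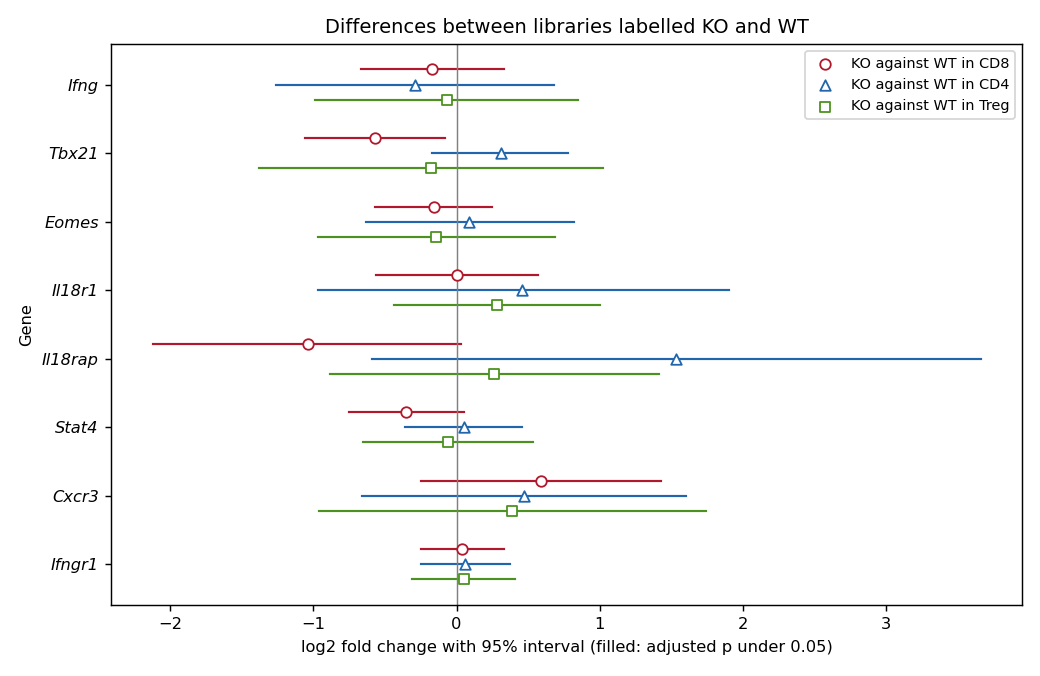
Fitted log2 differences (x axis) of the 8 genes (y axis) between libraries labelled KO and WT in each cell type, with 95% intervals; none passed an edgeR adjusted p of 0.05, so all symbols are open. Of the CD8 intervals, that of Tbx21 (-1.06 to -0.08) leaves out 0, and that of Il18rap in CD4 libraries (-0.59 to 3.66) is the widest drawn.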

How the data were processed

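The authors deposited raw counts per Ensembl gene for 18 libraries, made with a QuantSeq 3' FWD kit from 500 ng of total RNA with unique molecular identifiers, per the labels' protocols. The submitters' processing notes name the build GRCm38 (mm10), STAR 2.5.3a, UMI-tools 1.0.0, featureCounts, Subread 2.0.0, cutadapt 2.10 and FastQC. The strand setting and annotation release were not given in the sources used here. All columns were used (0 left out). Of 55487 genes, 55141 matched a symbol in GENCODE M21.

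Counts were fitted in R 4.3.3 with edgeR 4.0.16 (filterByExpr with a minimum count of 10, TMM, robust glmQLFit, glmQLFTest, Benjamini-Hochberg over all 12693 genes, threshold 0.05). CD8 and CD4 comparisons used the 12 CD8 and CD4 libraries, with 8 residual degrees of freedom, and Treg comparisons 16 samples, after summing the 2 near-identical Treg-labelled pairs, with 10. Pairs were compared by chi-square over genes with at least 20 counts. SE is the size of the log2 fold change over the square root of F, and counting intervals are exact at 95% and, like floors of 3 counts, cover counting error only. An exact permutation test of 3 against 3 cannot go below 0.1. Likeness used log2 CPM with a prior count of 2. Alternatives included DESeq2 1.42.0 and limma 3.58.1. The test was tried on simulated data.

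The 8 genes, the lists and the motifs were chosen with earlier results of these data known. All 8 genes were named; from each pathway list, up to 4 called genes with the largest change in a comparison were eligible to be named, and the 5 genes most like Ifng. 1 of the pathway genes considered is not reported here.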

Additional observations from a re-analysis of the deposited data

How the results depend on the processing

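Between genotype labels, 0 of the 8 genes were called in CD8, CD4 or Treg-labelled libraries under any of the 13 alternatives run for each. For the difference between CD8 and CD4, 1 was called with no filter on low counts (Tbx21), and 0 under the other alternatives. CD8 against CD4 gave 3 to 5 calls among the 8 in WT and 3 to 4 with KO labels, Treg-labelled against CD4 gave 4 to 6 and against CD8 3 to 4; the changed call not given above was Stat4, lower in Treg-labelled than CD8 WT with no filter (edgeR adjusted p = 0.0301). Over all genes, calls ran from 191 to 844 for CD8 against CD4 in WT (395 as reported) and from 204 to 588 with KO labels (358 as reported), and with no filter 328 genes were called between genotype labels in CD8, 13 in CD4 and 507 for the difference. Replicate numbers did not pair the libraries throughout. The correlation of deviations between libraries of the same number ran from -0.34 to 0.31, the highest for replicate 3 of CD8 WT and KO. The replicate block left 4 and 3 of the 8 called for CD8 against CD4. A group left with 1 sample was assumed to vary like the others.

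Some small log2 differences that passed no test changed sign when 1 library was left out, and the cause was not tested. For KO against WT the ranges were, in CD8, -0.07 to 0.12 for Ifngr1; in CD4, -0.63 to 0.51 for Ifng, -0.02 to 0.5 for Tbx21, -0.17 to 0.62 for Eomes, -0.14 to 0.2 for Stat4 and -0.01 to 0.09 for Ifngr1; and in Treg-labelled libraries, -0.32 to 0.14 for Ifng, -0.52 to 0.18 for Tbx21, -0.32 to 0.09 for Eomes, -0.19 to 0.7 for Il18rap, -0.42 to 0.06 for Stat4, -0.1 to 0.84 for Cxcr3 and -0.01 to 0.16 for Ifngr1. Stat4 ranged from -0.3 to 0.09 in CD8 against CD4 with KO labels and from -0.23 to 0.03 in Treg-labelled against CD4, and against CD8 Il18r1 ranged from -0.13 to 0.37 and Cxcr3 from -0.73 to 0.21. The difference between CD8 and CD4 ranged from -0.68 to 0.45 for Ifng, -0.78 to 0.01 for Eomes, -0.42 to 0.44 for Cxcr3 and -0.13 to 0.06 for Ifngr1, and limma-voom gave -0.08 for Ifng and -0.1 for Cxcr3.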
